A study of Mus musculus with 47 samples.

Results

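Uninduced cells of 2 engineered C2C12 lines, C2C12 iCdh23 and C2C12 iMcam, were compared after 48 h of differentiation, with 3 biological replicates of each. The comparison used 6 of the 47 libraries of the series, assigned by their sample labels (inducible Cdh23 or inducible Mcam, 48 h, vehicle in place of doxycycline). C2C12 is an immortalized mouse myoblast line that leaves the cell cycle and fuses into myotubes when serum is withdrawn. Each line held an XLone cassette, inserted by PiggyBac transposition, in which the doxycycline-responsive TRE3G promoter drives Cdh23 (iCdh23) or Mcam (iMcam), and each was 1 puromycin-selected line, whether a clone or a pool is not given in the sources used here. Polyadenylated RNA was sequenced, and each level is given here in CPM, the count summed over a gene's transcripts and scaled to the library total with a TMM factor. All 6 libraries carried an inducible transgene, and no C2C12 culture without one was used here, so the transgene of a line and its history of transfection and selection cannot be told apart. Beside these libraries stood the same lines after 48 h with doxycycline (dox, 3 replicates each), the uninduced iMyoD1 line at 48 h (3 replicates), in which the same promoter drives MyoD1, and uninduced iMyoD1 cultures at 120 h passed through a 40 um strainer (3 replicates of each size fraction).

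Cdh23 encodes cadherin 23, an unusually long cadherin best known from the inner ear, where it joins protocadherin 15 in the tip links that gate mechanotransduction in hair cells. Mcam encodes CD146, an adhesion molecule of the immunoglobulin superfamily found on endothelial cells, pericytes and several mesenchymal progenitors. Differentiating myoblasts align through cadherins, immunoglobulin-type molecules and integrins before the muscle-specific membrane proteins Mymk and Mymx open the fusion pore.

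The 3 iCdh23 libraries held 22680243, 21323935 and 24238898 estimated counts and the 3 iMcam libraries 16521346, 15066338 and 20230829, against a median of 22837926 over the series. Every iMcam library was thus shallower than every iCdh23 library. Genes of the muscle program were expressed in all 6: Myog, the transcription factor of early differentiation, lay between 615.2 and 1486 CPM, and Myh3, the embryonic myosin heavy chain, between 640.7 and 2029 CPM. Replicate 3 stood apart in both lines. It had the highest value of its line on the first principal component (45.5% of the variance), at 51.9 in iCdh23 and 12.8 in iMcam, and the highest summed sarcomere level of its line, as given with the gene lists further on. Counts of differing genes are therefore also given without it.

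The cassettes do not use the native promoters of the 2 genes, and transcript counts do not separate RNA of the cassette from RNA of the native locus. The native promoter windows are shown for reference, from RefSeq on GRCm38.p6, 250 bases before to 50 bases after the start that the RefSeq table uses, which for Mcam lies inside the GENCODE bounds of the gene given further on, 5′ to 3′ on its own strand, with the E-box CANNTG, the motif bound by MyoD1 and other basic helix-loop-helix factors, in capitals. The Cdh23 promoter lies at chr10:60696441-60696740 on the minus strand and holds 1 such motif, and the Mcam promoter at chr9:44134408-44134707 on the plus strand holds 2.
Cdh23: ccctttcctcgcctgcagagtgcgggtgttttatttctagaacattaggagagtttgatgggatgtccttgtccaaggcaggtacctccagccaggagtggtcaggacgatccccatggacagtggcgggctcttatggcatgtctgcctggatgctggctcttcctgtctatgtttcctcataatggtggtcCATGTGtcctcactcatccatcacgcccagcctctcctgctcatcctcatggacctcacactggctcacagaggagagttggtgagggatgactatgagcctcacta
Mcam: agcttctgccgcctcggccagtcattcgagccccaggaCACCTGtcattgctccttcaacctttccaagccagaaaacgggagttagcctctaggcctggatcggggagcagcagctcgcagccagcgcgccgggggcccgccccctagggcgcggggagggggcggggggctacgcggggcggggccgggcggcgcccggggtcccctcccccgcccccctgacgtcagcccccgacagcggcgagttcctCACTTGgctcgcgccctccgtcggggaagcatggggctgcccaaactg
CANNTG reads the same on both strands as a pattern, and 72.3% of the 32851 RefSeq promoters of this length hold it at least once, so its presence is common.

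Cdh23 was already high in the uninduced iCdh23 line. This difference was one reason for setting the 2 lines side by side, and it is described without a test. Cdh23 (ENSMUSG00000012819, chromosome 10, 60302748 to 60696490, minus strand, GRCm38) was at 369.6, 347.7 and 450.6 CPM in the 3 uninduced iCdh23 libraries, 389.3 ± 54.2 CPM (SD, n = 3). In the uninduced iMcam libraries it was at 5.61, 8.86 and 8.71 CPM, 7.73 ± 1.84 CPM (SD, n = 3), a ratio of 50.4 between the means. The lowest uninduced iCdh23 library exceeded every library outside the iCdh23 line, of which the highest, an induced iMcam library, reached 57.2 CPM. The uninduced iMyoD1 line at 48 h, in another deposited table, was at 8.49, 10.2 and 9.42 CPM, close to iMcam, and the iCdh23 mean was 41.6 times the iMyoD1 mean.

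With dox, Cdh23 in iCdh23 was at 568.1, 425.7 and 464.2 CPM, so that 80.1% of the induced mean was present without the inducer. The 3 induced values overlapped the 3 uninduced ones, and the log2 change of 0.32 is likewise described without a test. Dox called 30% of all genes in iCdh23 (13% higher and 17% lower) and 16.8% in iMcam (6.99% higher and 9.85% lower, without a replicate block). In iMcam, which has no Cdh23 cassette, Cdh23 was at 44.0, 57.2 and 52.4 CPM with dox, a log2 rise of 2.76 over the uninduced libraries. The fold between the lines by the fit was 9.31 with dox (log2 3.22) and 50.1 without it (log2 5.65).

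The transcripts to which Salmon assigned the Cdh23 counts also differed. In uninduced iCdh23, 53.8% of the gene's level went to Cdh23-209, an annotated retained-intron transcript of 67 exons and 10295 bases, which stood at 210.0, 182.0 and 236.0 CPM. A further 22.8% went to Cdh23-204, a protein-coding model of 70 exons, at 83.8, 63.4 and 119 CPM. Both were at 0 in all 3 uninduced iMcam libraries, where the protein-coding Cdh23-205 took 44.6% at a mean of 3.45 CPM. In iCdh23 the mean of Cdh23-205 was 42.1 CPM without and 142 CPM with dox, that of Cdh23-203 was 4.05 and 69.3 CPM, and that of Cdh23-209 was 210.0 and 106 CPM. These models share most of their exons, so the split between them is an estimate by the authors' quantifier and the counts do not carry its error. No test was run between transcripts.

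**Figure D1:**
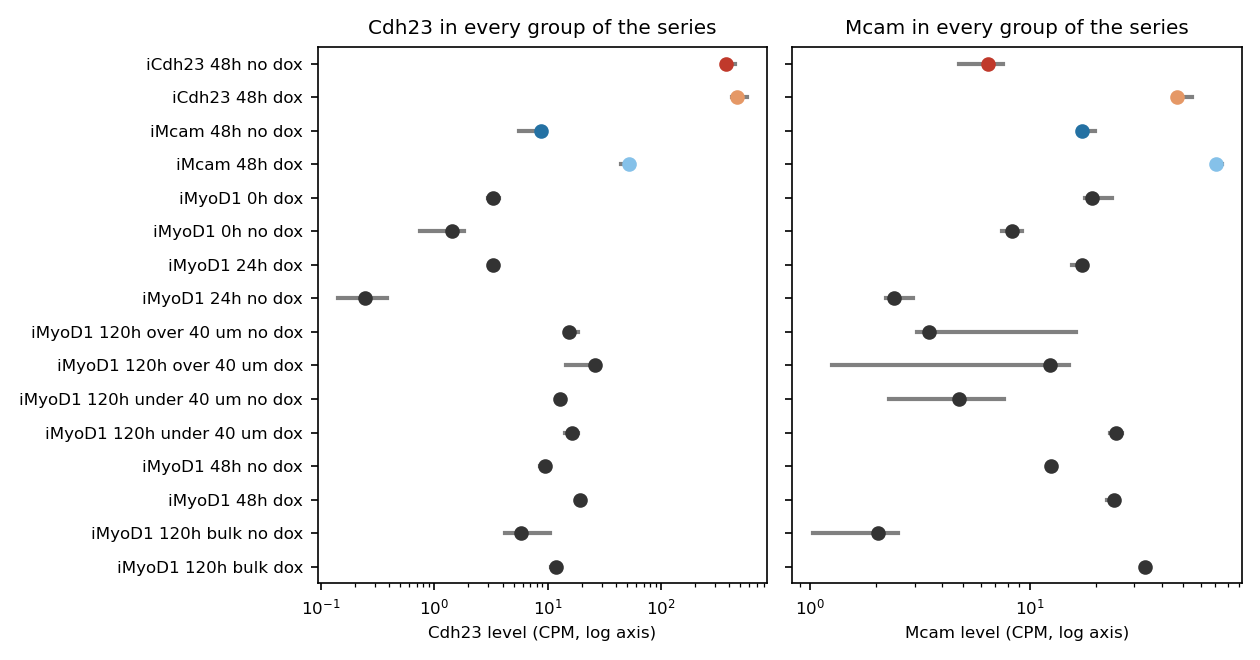
Cdh23 (left) and Mcam (right) in each of the 16 groups of the series, in CPM on a log axis; points are medians and bars run from the lowest to the highest library. Uninduced iCdh23 sits between 347.7 and 450.6 CPM of Cdh23, above every group outside its line, and uninduced iMcam lies above uninduced iCdh23 in Mcam.

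Mcam was less separated. Mcam (ENSMUSG00000032135, chromosome 9, 44134469 to 44142727, plus strand) was at 19.8, 17.1 and 17.3 CPM in uninduced iMcam and at 7.58, 6.51 and 4.77 CPM in uninduced iCdh23. The groups did not overlap, and Mcam was 2.9-fold higher in iMcam (log2 fold change -1.53 for iCdh23 over iMcam, SE 0.19, edgeR adjusted p = 0.0321), a call kept in 1 of the 6 fits that left out a library. The uninduced iMyoD1 libraries at 48 h, at 13.2, 12.5 and 12.2 CPM, lay between the lines. With dox Mcam rose in both, to 69.0, 70.2 and 74.7 CPM in iMcam and to 54.6, 47.1 and 45.7 CPM in iCdh23, where no Mcam cassette was present. The difference between the induced lines was 1.48-fold (log2 -0.57, edgeR adjusted p = 0.00138), below the 2-fold limit of a call. Of the study's other adhesion candidates, none was called without dox: M-cadherin, Cdh15, had a log2 difference of 0.28 (edgeR adjusted p = 0.523), the cell adhesion molecule Cadm4 0.41 (edgeR adjusted p = 0.524) and the laminin-binding integrin Itga3 -0.17 (edgeR adjusted p = 0.865).

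Beyond Cdh23, few genes were called between the uninduced lines when the replicate number was not used as a block. Of 13700 genes tested, 20 were higher in iCdh23 (0.146%) and 28 were higher in iMcam (0.204%), together 48 (0.35%), at an adjusted p under 0.05 and more than 2-fold by edgeR's quasi-likelihood test with Benjamini-Hochberg adjustment over all genes. At an unadjusted p under 0.05 there were 1511 genes, and the adjusted p alone, without the fold limit, gave 56 (0.409%). Cdh23 is counted in these numbers although its own difference is only described. The CPM ranges of the 2 lines did not overlap for any of the 48 (17.1% of all genes tested), which a call at this size nearly requires. The median log2 difference over all genes was 0.01. DESeq2 called 166 genes, with all 48 among them. With the replicate number as a block edgeR called 268 genes, again with all 48 among them. Calls were lost with each library left out: 17 genes were called without iCdh23 replicate 1, 8 without iCdh23 replicate 2, 31 without iCdh23 replicate 3, 9 without iMcam replicate 1, 8 without iMcam replicate 2 and 32 without iMcam replicate 3. Without replicate 3 of both lines, a setting chosen after seeing the data, 185 genes were called, of which 47 were among the 48. Of the 48 genes, 8 were called in every one of the 6 reduced fits and 13 in none of them. Beside Cdh23, which is only described, the 8 were Stc1, Fibin and Cbln1, higher in iCdh23, and Chrdl1, Plce1, Nrep and Sncaip, higher in iMcam.

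Several genes higher in iCdh23 encode secreted factors. Stc1, which encodes the glycoprotein hormone stanniocalcin 1, was at 155.3, 150.7 and 95.1 CPM in iCdh23 and at 14.02, 13.6 and 11.5 CPM in iMcam. The lowest iCdh23 library lay well above the highest iMcam library (10.2-fold, log2 3.35, SE 0.22, edgeR adjusted p = 0.00187). Fibin, a secreted signal of fin bud and limb mesenchyme, was at 8.24, 9.56 and 10.8 CPM against 0.835, 1.14 and 1.05 CPM (log2 3.22, SE 0.22, edgeR adjusted p = 0.00221). Cbln1, a synaptic organizer released by cerebellar granule cells, was at 14.4, 14.1 and 15.6 CPM against 2.33, 2.28 and 1.94 CPM (log2 2.74, SE 0.16, edgeR adjusted p = 0.00145). Replicates of these 2 genes were tightly grouped within each line.

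The alarmin cytokine Il33 was at 39.8, 47.4 and 31.8 CPM in iCdh23 against 8.77, 10.1 and 5.04 CPM in iMcam (log2 2.31, edgeR adjusted p = 0.0300). Il18rap, a subunit of the interleukin-18 receptor, was 1.34 higher on the log2 scale (edgeR adjusted p = 0.0400). Myocilin, Myoc, an extracellular protein best known from the eye, spread most among its replicates, at 3.01, 6.07 and 10.7 CPM in iCdh23 against 0.358, 0.47 and 0.367 CPM in iMcam (log2 4.03, SE 0.54, edgeR adjusted p = 0.0395). The growth factor gene Clec11a (log2 2.06, edgeR adjusted p = 0.0275) and the Wnt agonist R-spondin 1, Rspo1 (log2 1.63, edgeR adjusted p = 0.0408), were lower in level, under 10 CPM in all 6 libraries.

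Some of the other genes higher in iCdh23 act in signalling. Prex1, a guanine nucleotide exchange factor of Rac, was at 16.0, 14.1 and 13.9 CPM in iCdh23 and at 5.25, 3.83 and 2.73 CPM in iMcam (log2 1.89, edgeR adjusted p = 0.0354). Dock8, an exchange factor of Cdc42, was higher by 1.66 on the log2 scale (edgeR adjusted p = 0.0180). The Hedgehog effector Gli2 was at 12.1, 13.3 and 10.3 CPM against 2.86, 4.23 and 3.20 CPM, a log2 difference of 1.78 (edgeR adjusted p = 0.0275). Neither Prex1 nor Gli2 overlapped between the lines, which was a condition of their choice.

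Trdn, which encodes triadin of the junction between sarcoplasmic reticulum and transverse tubule, was the 1 gene of the triad list to be called. It was at 10.1, 14.4 and 18.3 CPM in iCdh23 against 1.55, 1.68 and 3.10 CPM in iMcam (log2 2.73, SE 0.33, edgeR adjusted p = 0.0321). Also higher in iCdh23 were the imprinted zinc finger gene Zim1 (log2 1.85), the galactosyltransferase gene B3galt1 (1.74), the mitochondrial acyl-CoA synthetase gene Acss3 (3.03), the X-linked Xlr3a (1.23), the MHC class I gene H2-Q4 (1.04) and the histone gene Hist2h3c1. Hist2h3c1 had no count in any iMcam library and was at least 15.6-fold higher in iCdh23 against a floor of 3 counts per library, and its reads cannot be placed with certainty among near-identical histone copies. The same holds for Xlr3a and H2-Q4, which belong to families of close paralogs.

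The largest differences toward iMcam were nearly on and off. Sncaip, which encodes the synuclein-binding protein synphilin 1, was at 9.07, 9.07 and 8.398 CPM in iMcam and at 0.266, 0.243 and 0.39 CPM in iCdh23 (28.9-fold, log2 -4.86, SE 0.25, edgeR adjusted p = 9.22e-04). Nrep, a small protein named for its presence in regenerating neurons, was at 27.9, 22.3 and 36.8 CPM in iMcam against 0.797, 1.65 and 1.73 CPM (20.9-fold, log2 -4.38, SE 0.31, edgeR adjusted p = 0.00254). Plce1, phospholipase C epsilon, was at 7.58, 10.01 and 7.82 CPM against 0.709, 1.02 and 0.781 CPM (10.1-fold, log2 -3.34, SE 0.24, edgeR adjusted p = 0.00254). In all 3 genes every iCdh23 library stood below 2 CPM.

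Some of the genes higher in iMcam encode secreted antagonists or proteins of the matrix. Chrdl1, a secreted inhibitor of BMP ligands, was at 41.8, 50.6 and 53.4 CPM in iMcam and at 10.1, 11.8 and 12.3 CPM in iCdh23 (log2 -2.10, SE 0.14, edgeR adjusted p = 0.00187). Dkk3, a dickkopf-family glycoprotein, was at 38.1, 31.97 and 25.3 CPM against 9.48, 10.1 and 8.15 CPM (log2 -1.79, SE 0.18, edgeR adjusted p = 0.0180). The calcium-binding matricellular gene Smoc2 was at 61.1, 48.6 and 92.2 CPM against 18.2, 15.4 and 20.6 CPM (log2 -1.90, edgeR adjusted p = 0.0327). No library of one line entered the range of the other in these 3 genes, as in all 48 called genes. The microfibril gene Mfap2 (log2 -1.85), the adhesive matrix protein gene Svep1 (-1.66), the EGF-repeat gene Megf6 (-1.18) and the complement protease gene C1s1 (-1.19) were called in the same direction.

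Others higher in iMcam encode receptors, signalling enzymes or membrane proteins. The natriuretic peptide clearance receptor Npr3 was at 7.81, 6.25 and 3.57 CPM in iMcam against 0.797, 0.388 and 0.607 CPM in iCdh23 (log2 -3.28, SE 0.41, edgeR adjusted p = 0.0321). Kctd12, an auxiliary subunit of GABA-B receptors, had a log2 difference of -2.51 (SE 0.22, edgeR adjusted p = 0.0101) and was called in 4 of the 6 reduced fits. Rgs4, which speeds the turn-off of G proteins, had one of -1.94 (edgeR adjusted p = 0.0414), and the adenylyl cyclase gene Adcy3 one of -1.06 (edgeR adjusted p = 0.04997). The bicarbonate transporter gene Slc4a4 (-3.06), the phospholipid flippase gene Atp8b1 (-2.23) and the membrane glycoprotein gene Gpm6b (-1.35) were lower in iCdh23 as well, the first 2 from levels under 4 CPM in both lines.

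Enzyme and nuclear genes were also higher in iMcam. Abat, the transaminase that degrades GABA, was at 19.2, 15.8 and 18.4 CPM in iMcam against 4.83, 3.79 and 2.43 CPM in iCdh23 (log2 -2.28, SE 0.25, edgeR adjusted p = 0.0275). The retinal reductase gene Dhrs3 (-1.09), the poly(A) polymerase gene Tent5a (-1.17) and Bckdhb of branched-chain amino acid breakdown (-2.88) were lower in iCdh23. So were the homeobox gene Msx2 (-2.83), a target of BMP signalling, the zinc finger gene Glis1 (-2.83), the splicing regulator gene Khdrbs3 (-2.04), the actin nucleator gene Lmod1 of smooth muscle (-1.72), the apolipoprotein L gene Apol10b (-1.82) and Fam181b (-3.06). In 8 of the 48 genes the mean was under 5 CPM even in the higher line, among them Msx2, Glis1, Bckdhb, Slc4a4, Atp8b1 and Fam181b. For 5 of the 48 another tested gene overlaps the locus (Hist2h3c1, Cdh23, Cbln1, Adcy3 and Kctd12), and the strand setting of the counting is not given in the sources used here.

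**Figure D2:**
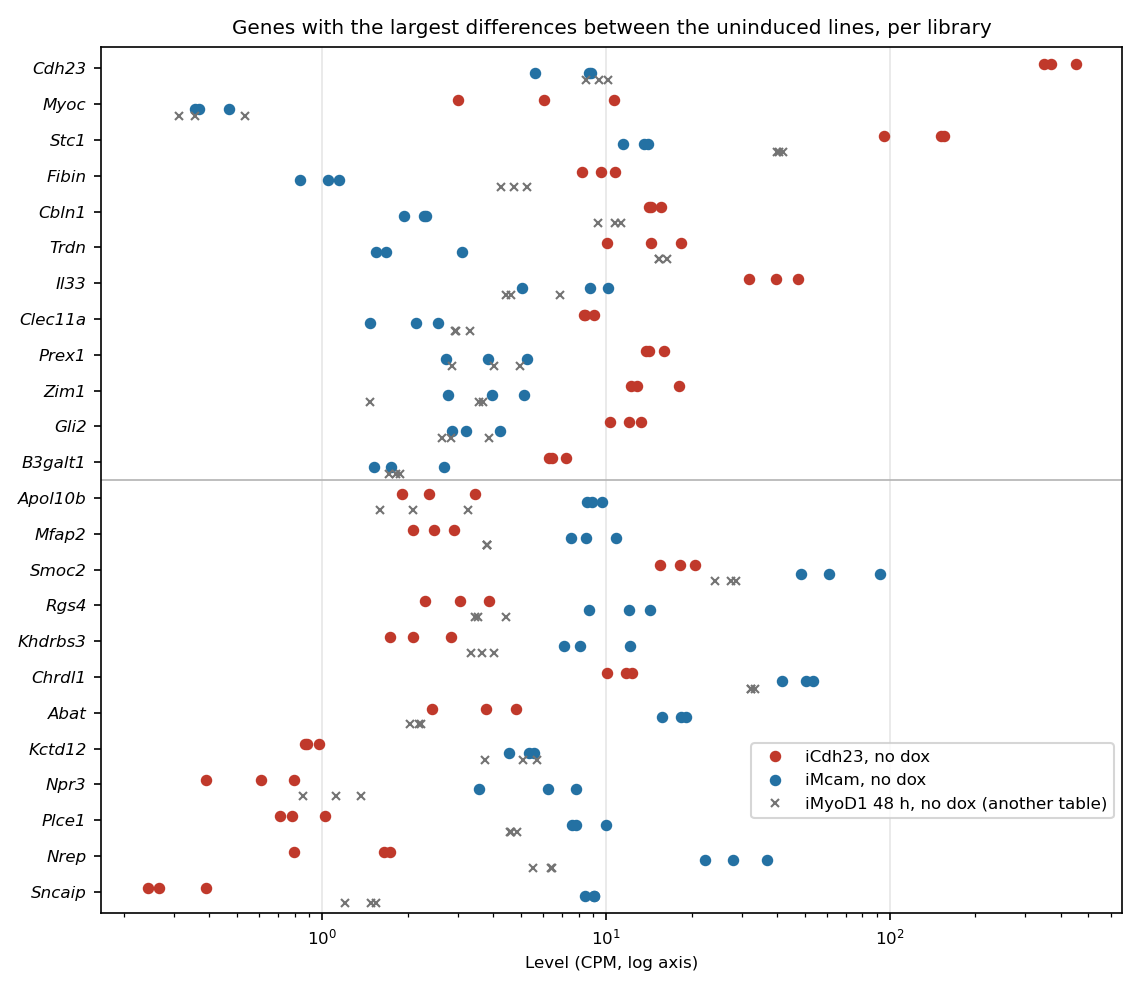
Level per library, in CPM on a log axis, of the 12 called genes with the largest differences in each direction among those with a mean of at least 5 CPM in the higher line; red points are uninduced iCdh23, blue points uninduced iMcam and crosses the uninduced iMyoD1 line at 48 h, which comes from another table. Red and blue points do not overlap for any of the 24 genes, which was a condition of their choice, and the crosses fall on either side.

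The lines after 48 h of dox share no library with the uninduced comparison, so they show which of the 48 differences were present in a separate set of libraries. With dox 443 genes were higher in iCdh23 (3.17% of 13953 tested) and 1141 were higher in iMcam (8.18%). Of the 48 genes, 47 were tested there and 30 (63.8%) were called in the same direction, against 11.4% of all genes called in either direction. These 30 were 1.89% of the 1584 calls with dox. By direction, 10 of the 20 genes higher in iCdh23 and 20 of the 27 tested genes higher in iMcam were called again, with Cdh23, which is only described, among the 10. Both lines received dox in this comparison, each with its own cassette.

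Sncaip, Nrep and Plce1 kept large differences with dox. Sncaip was at 4.80, 4.79 and 5.11 CPM in induced iMcam against 0.209, 0.232 and 0.25 CPM in induced iCdh23 (log2 -4.41, edgeR adjusted p = 8.57e-06). The log2 difference was -4.01 for Nrep (edgeR adjusted p = 7.08e-06) and -4.63 for Plce1 (edgeR adjusted p = 2.26e-05). Toward iCdh23, Cbln1 was at 5.84, 9.40 and 8.13 CPM against 0.637, 0.561 and 0.599 CPM (log2 3.66, edgeR adjusted p = 2.49e-05), and Dock8 at 26.5, 26.4 and 26.5 CPM against 4.95, 4.79 and 4.79 CPM (log2 2.42, edgeR adjusted p = 3.50e-06). Both genes were again without overlap, as 49.4% of all genes were between the induced lines. Prex1 (log2 1.06), B3galt1 (1.65), Xlr3a (1.02) and H2-Q4 (1.23) were called as well, and H2-Q4 reached 133.4, 151.8 and 156.5 CPM in induced iCdh23 against 59.0, 67.2 and 57.6 CPM.

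For other genes the difference was not the same with dox. An interaction term between line and dox was called for 944 of 14552 genes (6.49%, with 1.02% positive and 5.47% negative) and for 19 of the 48. That term uses the uninduced libraries on which the 48 were called, and it is given beside the induced values as a description. The term was negative for all 10 such genes higher in uninduced iCdh23, with Cdh23, which is only described, among them. Genes chosen for being high in those libraries lean toward a negative term. Stc1 fell to 2.09, 1.99 and 1.96 CPM in induced iCdh23 and to 4.46, 3.01 and 2.95 CPM in induced iMcam, so the order of the lines turned (log2 -0.82, edgeR adjusted p = 0.0193, below the fold limit). Il33 was called in the opposite direction with dox, at 0.667, 0.397 and 0.927 CPM in iCdh23 against 3.58, 3.06 and 2.44 CPM in iMcam (log2 -2.22, edgeR adjusted p = 9.43e-04). Myoc was the other such gene, at 0.0417, 0 and 0.0713 CPM against 0.637, 0.51 and 0.829 CPM (log2 -4.03, edgeR adjusted p = 0.00116). Fibin (log2 -0.23), Trdn (-1.19), Clec11a (0.05), Zim1 (0.10) and Gli2 (0.59) were not called with dox. Levels of Fibin, Trdn and Clec11a were then under 2 CPM in all 6 induced libraries.

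Toward iMcam the interaction went both ways. Chrdl1 stayed at 34.6, 32.1 and 47.9 CPM in induced iMcam but was at 2.46, 1.69 and 2.18 CPM in induced iCdh23, and the difference grew to -4.22 on the log2 scale (edgeR adjusted p = 7.08e-06). Megf6 was at 12.2, 8.87 and 16.2 CPM in induced iMcam against 0.542, 0.232 and 0.571 CPM (log2 -4.83, edgeR adjusted p = 2.82e-05). Dkk3 (log2 -3.43), Svep1 (-3.63) and Rgs4 (-3.97) also differed more with dox than without. Abat turned the other way: it was at 41.2, 48.2 and 47.4 CPM in induced iCdh23 and at 33.5, 31.6 and 38.1 CPM in induced iMcam, a log2 difference of 0.38 (edgeR adjusted p = 0.0122). Glis1 was likewise higher in induced iCdh23, at 5.67, 4.73 and 6.85 CPM against 3.92, 3.72 and 3.27 CPM (log2 0.63, edgeR adjusted p = 0.0290), and neither gene reached the 2-fold limit. Msx2 (log2 -0.99) and Slc4a4 (-1.44) differed less with dox than without.

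**Figure D3:**
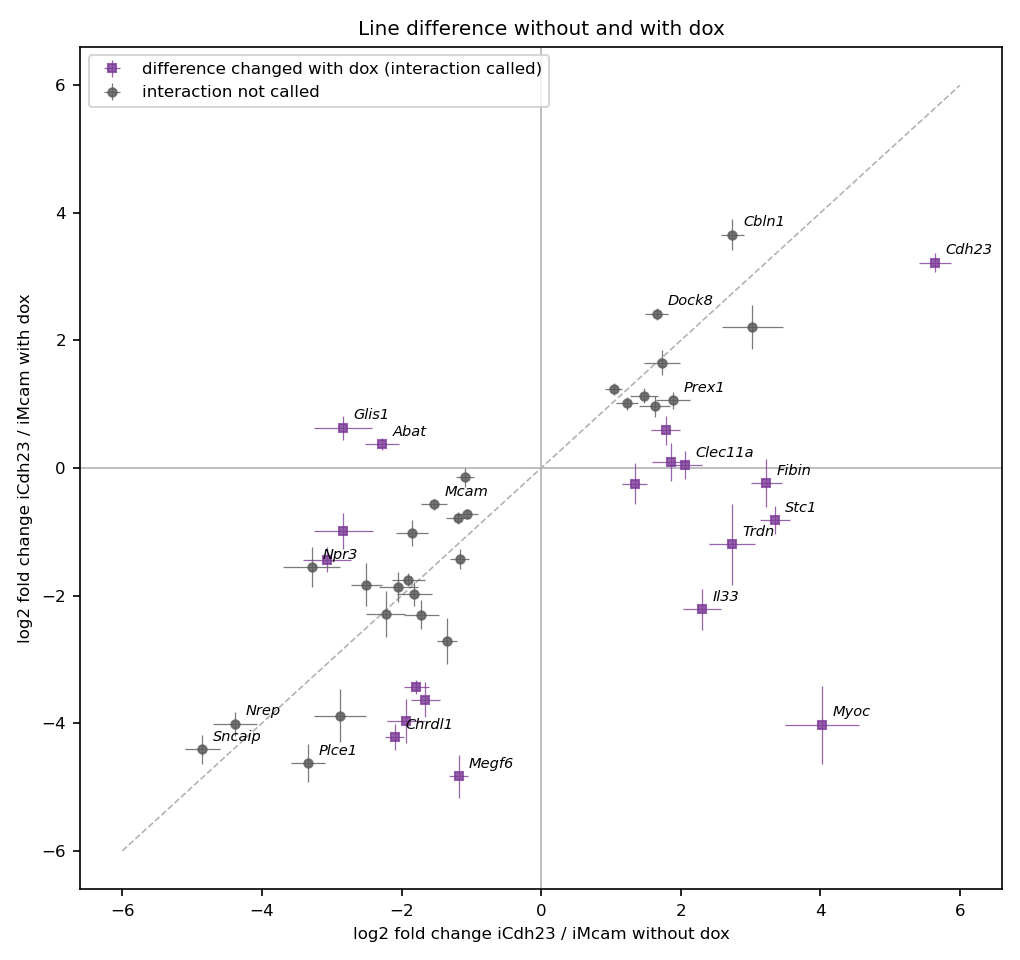
Log2 fold change of iCdh23 over iMcam without dox (horizontal) and with dox (vertical) for 46 of the 48 genes, with bars of 1 SE; the dashed line marks equal values, Fam181b was not tested with dox and Hist2h3c1 is left out because iMcam held no counts. Sncaip, Nrep and Plce1 lie low on the left near or below the line, while Stc1, Il33, Myoc and Trdn lie to the right below 0.

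The iMyoD1 line gave another uninduced culture at 48 h, from a table deposited separately, so its levels are set beside the others without a test. The iMyoD1 mean lay between the 2 lines for 30 of the 48 genes, below both for 16 and above both for 2. It was nearer iMcam for 15 of the 20 genes higher in iCdh23 and nearer iCdh23 for the others of them. Il33 was at 4.63, 4.45 and 6.87 CPM and Prex1 at 4.99, 4.02 and 2.86 CPM in iMyoD1, within or next to the iMcam range. Trdn, by contrast, was at 15.4, 16.3 and 15.4 CPM, within the iCdh23 range, and Cbln1 at 10.8, 9.37 and 11.3 CPM was nearer iCdh23. Of the 28 genes higher in iMcam, 6 were nearer iMcam in iMyoD1, Chrdl1 among them at 32.4, 33.4 and 32.5 CPM. Sncaip at 1.49, 1.55 and 1.21 CPM and Abat at 2.20, 2.04 and 2.23 CPM were nearer iCdh23.

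A question bearing on these genes was whether they differ between fused and unfused cells. Between the uninduced iMyoD1 fractions at 120 h, retained by the strainer (myotube-enriched) or passing it (myoblast-enriched), edgeR called 82 of 14023 genes (0.585%, with 0.57% higher and 0.0143% lower in the myotube-enriched fraction), or 480 with the replicate number as a block, as the replicates of the 2 fractions deviated together. Of the 48 genes 46 were tested and none was called by edgeR. At an unadjusted p under 0.05 there were 8 of 46, against 2251 of all 14023 genes, a similar share. DESeq2 called 2 of the 46, and its count over all genes is given with the dependence on processing. The blocked fit called 1 of the 46, which was higher in the myotube-enriched fraction. Their log2 differences ran from -1.42 to 1.95, with Trdn at 1.95, Nrep at -0.99, Stc1 at -0.90 and Mcam at 0.67. The edgeR count without the block fell to 0 with myotube-enriched replicate 3 left out, to 47 without replicate 2 and rose to 233 without replicate 1, and it was 0, 0 and 1 with myoblast-enriched replicates 1, 2 and 3 left out in turn.

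Gene lists covering adhesion, myogenesis, matrix and signalling, 37 in all with 660 genes tested, held 8 of the calls, Cdh23 among them (1.21%, against 0.35% of all genes). The lists were chosen with earlier results known, and nothing is read from that share. In bulk RNA a lower list level can mean fewer cells of a kind or less RNA in each, which cannot be told apart here. No gene of the regulator and fusion lists passed the test, but at the 0.35% called over all genes, lists this short would rarely hold a call. None of 20 tested myogenic regulators and partners was called by edgeR or DESeq2, 6 had an unadjusted p under 0.05, and the list median was 0.14 on the log2 scale. Myod1 had a log2 difference of 0.16 (edgeR adjusted p = 0.807) and Myog one of 0.40 (edgeR adjusted p = 0.636). Among 21 fusion genes neither tool called any, 1 had an unadjusted p under 0.05 and the median was 0.02, with Mymk at 0.32 (edgeR adjusted p = 0.635) and Mymx at 0.46 (edgeR adjusted p = 0.671). For 30 of the 37 lists edgeR called no gene at all, while 137 of their 523 tested genes had an unadjusted p under 0.05, against 1511 of all 13700 genes. DESeq2 called 16 of them, against 166 of all 22661 genes with a count. The same shares over all genes stand beside the counts of every list given below.

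Few genes related to the transgenes were called, but at the 0.35% called over all genes, lists of this size would rarely hold a call. An unadjusted p under 0.05 was reached by 1511 of all 13700 genes. The 22 tip-link and Usher complex partners of Cdh23 gave 12 tested genes, a median of -0.11 and no call (1 at an unadjusted p under 0.05, 0 by DESeq2). The classical cadherins with their catenins had a median of 0.02 over 9 genes, with no edgeR call, 3 at an unadjusted p under 0.05 and 1 called lower by DESeq2. N-cadherin, Cdh2, called by neither tool, had a log2 difference of -0.28 (edgeR adjusted p = 0.422). Protocadherins and atypical cadherins had a median of -0.29 over 12 genes, with no edgeR call, 5 at an unadjusted p under 0.05 and 1 called higher by DESeq2. Of 17 Mcam ligands and partners none was called by edgeR, with 6 at an unadjusted p under 0.05 and 1 called higher by DESeq2. The laminin gene Lama4 had a log2 difference of -0.08 (edgeR adjusted p = 0.915). Among 25 tested immunoglobulin-type adhesion molecules Mcam itself was the 1 edgeR call, and among 16 integrin subunits, the muscle laminin receptor Itga7 included (log2 0.09, edgeR adjusted p = 0.919), edgeR called none, with 2 at an unadjusted p under 0.05 and 0 by DESeq2.

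The 3 lists farthest above 0 were also computed without iCdh23 replicate 3 and without replicate 3 of both lines. The ATF4 list, of genes for amino acid synthesis and the integrated stress response, had a median log2 difference of 1.20, with all 24 genes above 0 and none called by edgeR (3 at an unadjusted p under 0.05, 0 by DESeq2). Its summed level was 1245, 1484 and 6247 CPM in iCdh23 and 1369, 1238 and 1728 CPM in iMcam, and the median was -0.08 without iCdh23 replicate 3 and 0.06 without replicate 3 of both lines. Atf4 itself was at 222.1, 298.5 and 718.4 CPM against 245.8, 229.4 and 386.6 CPM, and Ddit3, its proapoptotic target, at 16.3, 14.2 and 55.0 CPM against 19.3, 15.9 and 12.9 CPM. Replicate 3 of iCdh23 was the highest library for both genes.

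Muscle metabolism genes had a median of 0.64 with 17 of 18 above 0, no call by edgeR or DESeq2 and 2 at an unadjusted p under 0.05, and the median was 0.21 without iCdh23 replicate 3 but 0.53 without replicate 3 of both lines. Sarcomere genes had the next highest median, 0.51. Their sum was 13334, 17323 and 23529 CPM in iCdh23 and 10366, 13804 and 22464 CPM in iMcam, ranges that overlapped, with replicate 3 highest in each line. Of 52 genes 46 lay above 0, edgeR called none, 3 had an unadjusted p under 0.05, and DESeq2 called 0. Without iCdh23 replicate 3 the median was 0.01, and without replicate 3 of both lines it was 0.45, with 2 genes called higher in iCdh23. With dox all 44 tested sarcomere genes lay below 0 (median -3.02) and 39 were called lower in iCdh23, against 8.18% of all genes, from sums of 1580, 1284 and 1498 CPM against 3280, 3261 and 5652 CPM.

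Lists of extracellular matrix genes differed among themselves. Basement membrane genes had a median of -0.02 with 10 of 20 above 0, no edgeR call, 5 at an unadjusted p under 0.05 and 0 calls by DESeq2, and matrix metalloproteinases with their inhibitors one of -0.32 with 2 of 16 above 0, no edgeR call, 7 at an unadjusted p under 0.05 and 1 called lower by DESeq2. Matricellular proteins and proteoglycans had a median of -0.58, with 5 of 37 genes above 0, no edgeR call and 14 genes at an unadjusted p under 0.05 (DESeq2 called 1, lower in iCdh23). Their sum was 20553, 19736 and 22340 CPM in iCdh23 and 24038, 28769 and 30706 CPM in iMcam, without overlap. Among single genes, 17.1% of all tested were without overlap. Collagen chains had a median of -0.48 with 4 of 27 above 0 and no edgeR call. Of these genes 15 had an unadjusted p under 0.05, against 1511 of all 13700 genes. DESeq2 called 1 higher and 3 lower, against 166 of all 22661 genes with a count. Col3a1, the chief chain here by level, was at 5747, 6101 and 6403 CPM in iCdh23 against 7183, 8513 and 9588 CPM in iMcam (log2 -0.48, edgeR adjusted p = 0.295). With dox 29 of 36 tested matricellular genes were called lower in iCdh23, against 8.18% of all genes.

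Few members of the other lists were called by edgeR, as were few of all genes (0.35%). Of 33 Wnt genes edgeR called Rspo1 higher and Dkk3 lower, 14 had an unadjusted p under 0.05 and DESeq2 called 3 higher and 2 lower. Of 24 chemokines and cytokines edgeR called Il33 higher, with 6 at an unadjusted p under 0.05 and 1 called in each direction by DESeq2. Of 15 imprinted genes Zim1 was called higher, with 7 at an unadjusted p under 0.05 and 1 higher and 2 lower by DESeq2. Of 20 genes of smooth-muscle-type contraction Lmod1 was called lower, with 9 at an unadjusted p under 0.05 and 3 lower by DESeq2. The list of TGF-beta, activin and BMP signals had no edgeR call and a median of -0.39, with 13 of 28 genes at an unadjusted p under 0.05 and 1 lower by DESeq2. YAP/TAZ targets had no edgeR call and a median of -0.31, with 11 of 21 genes at an unadjusted p under 0.05 and 1 lower by DESeq2. The IGF list had no edgeR call, 4 of 14 genes at an unadjusted p under 0.05, 1 gene called higher by DESeq2 and a median of -0.08. Its sum was 5881, 6310 and 5569 CPM in iCdh23 against 3100, 3858 and 2220 CPM in iMcam. Igfbp5, an IGF-binding protein secreted by differentiating myoblasts, was its most abundant member, at 4594, 4616 and 4226 CPM against 1771, 2374 and 1021 CPM (log2 1.37, edgeR adjusted p = 0.139). These ranges did not overlap, as those of 17.1% of all genes tested did not, and the test was not passed. The 13 genes encoded by mitochondrial DNA all lay above 0, with a median of 0.34 and sums of 36216, 42074 and 40255 CPM against 30265, 31065 and 29602 CPM. Of these edgeR called none, DESeq2 called 0 and 6 had an unadjusted p under 0.05. Mitosis and replication genes had a median of 0.18, with Mki67 at 0.24 (edgeR adjusted p = 0.724).

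**Figure D4:**
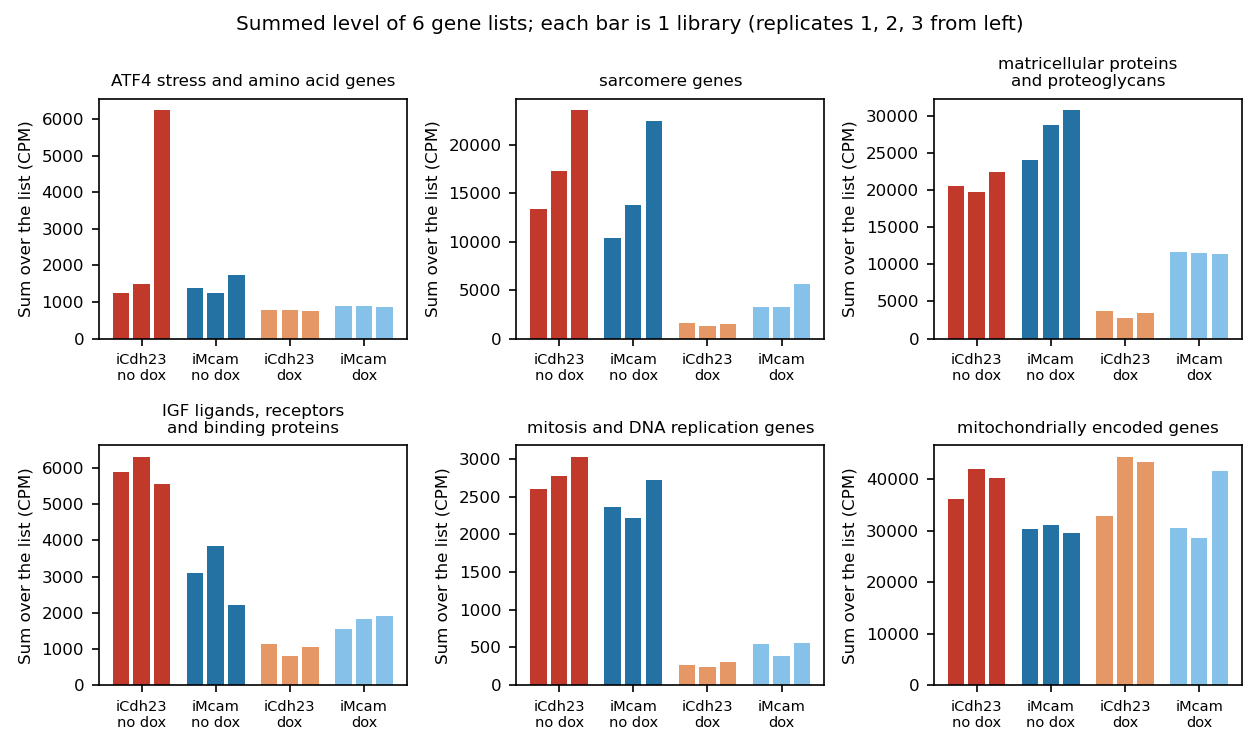
Summed level in CPM of 6 gene lists in each library of the 2 lines without and with dox; each bar is 1 library, with replicates 1, 2 and 3 from left to right, and axes start at 0. The ATF4 sum of 6247 CPM is that of a single iCdh23 library, and sarcomere sums are far lower in all dox libraries.

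**Figure D5:**
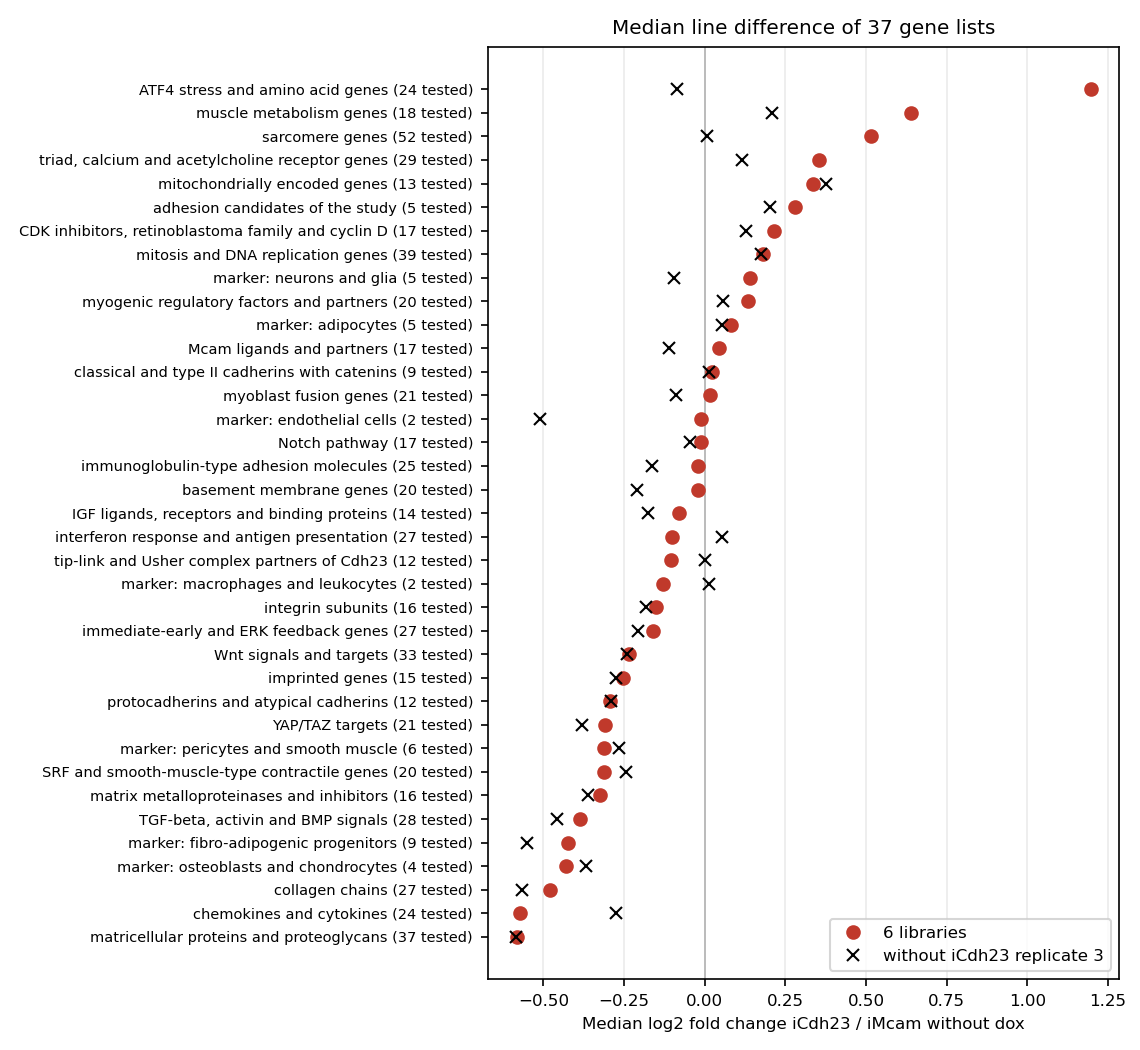
Median log2 fold change of iCdh23 over iMcam without dox for each of 37 gene lists (red points), with the number of genes tested, and the same without iCdh23 replicate 3 (crosses). The ATF4 median moves from 1.20 to -0.08 and the sarcomere median from 0.51 to 0.01 (0.45 without replicate 3 of both lines, not drawn), while the matricellular median is -0.58 with 6 libraries and -0.58 without it.

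Markers of other cell types were checked in the 6 libraries. No gene of the 7 marker lists was called by edgeR, 0 to 4 genes of a list had an unadjusted p under 0.05, and DESeq2 called 1 gene in each of the endothelial, adipocyte, fibro-adipogenic and pericyte lists. Of 10 endothelial markers, 2 passed the filter on low counts, and the list's sum was 2.13 to 4.73 CPM in iCdh23 and 3.04 to 5.30 CPM in iMcam. Flt1 was the highest member, Pecam1 reached at most 0.177 CPM, Cdh5 at most 0.133 CPM, and Tie1 and Erg were at 0. Macrophage and leukocyte markers summed to 1.39 to 3.46 CPM and 1.61 to 3.34 CPM, with Adgre1, Cd52 and Tyrobp at 0. Adipocyte markers summed to 78.9 to 88.5 CPM and 50.96 to 92.7 CPM. Of these 10 markers 5 passed the filter, with Cebpa the highest and Pparg at 6.955 to 9.366 CPM in the 6 libraries. The other 5, among them Adipoq, Fabp4 and Plin1, were at 0. Markers of fibro-adipogenic progenitors summed to 571 to 676 CPM and 436 to 716 CPM, and those of pericytes and smooth muscle, which differentiating myoblasts share through Acta2, to 3300 to 4101 CPM and 3709 to 5390 CPM. Osteoblast and chondrocyte markers summed to 126 to 150.6 CPM against 151.3 to 190.4 CPM, next to each other without overlap, as were 17.1% of single genes tested. Neuronal and glial ones summed to 71.5 to 103 CPM against 66.9 to 87.3 CPM.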

How the data were processed

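RNA of the 6 uninduced libraries, and of the libraries set beside them, was quantified per transcript by the authors with nf-core/rnaseq 3.18.0 and Salmon, and the deposited tables hold estimated counts. Per the labels the genome was mm10; the strand setting and annotation release are not given in the sources used here. Estimated counts were summed per gene and rounded. GENCODE vM21 (GRCm38) gave positions for 98.72% of transcripts, and symbols were found for 98.77% of genes. Levels are CPM with TMM factors over all libraries.

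Lines were compared with edgeR 4.0.16 in R 4.3.3 (filterByExpr, TMM, glmQLFit and glmQLFTest, limma 3.58.1), and genes were called at an adjusted p under 0.05 and more than 2-fold. The study tested with DESeq2, here an alternative (1.42.0), as were RLE scaling, no filter, a replicate block, 1 fit of all 4 groups and leaving out each library. Genes named were the 12 largest called differences in each direction with a mean of at least 5 CPM in the higher line and no overlap, the first 2 of each list, called list members and the adhesion candidates; the rest of the 48 are named for completeness, except where an item is not reported here, and other genes named were chosen after their values were seen. Members and lists were chosen with earlier results of these data known.

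Replicates are biological per the labels, and no pair agreed within sampling noise (chi-square per gene 7.0 to 83.0). Deviations of same-numbered uninduced libraries correlated at 0.46, 0.09 and 0.47. Replicate 2 fell under the 0.1 asked of every pair, so the numbers were not taken to pair the lines, although replicates 1 and 3 deviated together. In the fractions they correlated at 0.41, 0.12 and 0.19, and the blocked count is given beside the other. For the dox effect in iMcam they correlated at 0.35, 0.22 and 0.41, and the block gave 2405 genes against 2313. Counts at 0 were bounded with a floor of 3 counts per library, which covers counting error only. Fits were tested on simulated data. Python 3.11.15 with pandas 2.3.3, numpy 2.4.6 and matplotlib 3.10.9 made the tables and plots.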

Additional observations from a re-analysis of the deposited data

Results flagged for a closer look

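The values here are of one kind: the difference between the lines changed with dox by an interaction term of line and dox, edgeR adjusted p under 0.05 and more than 2-fold, given on the log2 scale as the difference with dox minus the difference without. The term was called for 6.49% of all genes. For genes called between the uninduced lines, the same uninduced libraries enter both values.

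Among genes higher in uninduced iCdh23 it was -8.03 for Myoc, -4.52 for Il33, -4.17 for Stc1, -3.92 for Trdn, -3.46 for Fibin, -2.02 for Clec11a, -1.76 for Zim1, -1.58 for Il18rap and -1.19 for Gli2. Among those higher in uninduced iMcam it was -3.65 for Megf6, -2.11 for Chrdl1, -2.03 for Rgs4, -1.96 for Svep1 and -1.63 for Dkk3, and 3.46 for Glis1, 2.66 for Abat, 1.85 for Msx2 and 1.63 for Slc4a4.

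The remaining ones are list genes that did not differ by a call without dox. Muscle genes were Myog (-4.18), Acta1 (-3.96), Cacna1s (-3.74), Ckm (-3.71), Myh3 (-3.67), Mymk (-3.65) and Mymx (-3.58). Matrix, laminin and smooth-muscle-type genes were Dcn (-4.85), Postn (-3.24), Acta2 (-2.77), Lama4 (-2.58) and Col1a2 (-2.20). Cell cycle genes were Mki67 (-2.62), Cdkn1a (-2.41), Top2a (-2.16) and Cdkn1c (-1.89). Adhesion and signalling genes were Ly6a (-3.04), Igf1 (-2.06), Cdh2 (-1.58), Tgfb2 (-1.47) and Itga7 (-1.05), the imprinted RNA H19 was at -3.54 and the adipogenic factor Pparg at -1.64, and Fos stood at 1.48.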

How the results depend on the processing

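The number of genes that differed between the uninduced lines depended on the processing. For higher in iCdh23 (20) and higher in iMcam (28) it was 67 and 99 with DESeq2, 40 and 59 without the low-count filter, 69 and 88 in 1 fit of all 4 groups, and 63 and 122 without replicate 3 of both lines, chosen after seeing the data. With the replicate number as a block it was 113 and 155, although the numbers were not taken to pair the lines and not every library correlated best with its own number. Leaving out 1 library gave 4 to 16 and 4 to 23. The change of the difference with dox (944 genes) fell to 615 without induced iCdh23 replicate 2, and ran up to 1026. With dox, leaving out 1 library gave 410 to 477 genes higher in iCdh23 and 1029 to 1240 higher in iMcam, and the dox effect counted 4254 to 4579 genes in iCdh23 and 1997 to 2579 in iMcam. For the fractions (82) it was 477 with DESeq2, 365 without the filter, 480 with the block and 0 to 233 without 1 library. No direction of a called gene was reversed. The block changed no call of the 48, and 1 of them was lost in the fit of 4 groups. The cause of these shifts was not tested. Depth is thinnest for the 8 of the 48 genes with a mean under 5 CPM in the higher line.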

Other observations

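Differences between the lines also ran along chromosomes, a pattern noticed in the data, with windows and limits chosen after seeing them. Over genes tested both without and with dox, the 753 genes of chromosome 9, on which Mcam lies, had a median log2 difference of iCdh23 over iMcam of -0.14 without and -0.14 with dox, and 72% and 68.4% of them lay below 0. The median over all genes was 0.01 and -0.01. In windows of 10 Mb with at least 20 genes over a log2 CPM of 3, 9 of 12 windows on chromosome 9 had medians under -0.1 in both comparisons, against 1 of 182 elsewhere. On chromosome 8 the 69 genes between 80 and 90 Mb had medians of 0.28 and 0.37, and the 44 genes between 90 and 100 Mb had 0.19 in both. Cbln1, higher in iCdh23, was the 1 called gene of the first of these windows. Of the 753 genes, 3 were called without dox, a share near the 0.35% of all genes called. These were Mcam, Bckdhb and Tent5a, all lower in iCdh23. Genes within a window share libraries and are not independent, and no test was run.

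Another 8 genes passed an edgeR adjusted p under 0.05 at less than 2-fold. Among them, higher in iCdh23 were the phosphatase inhibitor gene Ppp1r14c (log2 0.95), the MHC class I gene H2-K1 (0.93, and 1.17 with dox), the binding protein gene Igfbp2 (0.82), the dystrophin relative Drp2 (0.72) and the RNA-editing enzyme gene Adarb1 (0.71). Higher in iMcam were the LIM protein gene Fhl2 (-0.61) and Ccn5 (-0.79), a matricellular gene whose difference was -4.14 with dox.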
